A study of Mus musculus with 17 samples.

Results

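The genes that encode the alpha chains of the collagens were followed in irradiated mouse lung. They were taken as every row of the count table whose symbol is Col, a number, the letter a and another number, which found 44 of 45777 genes. They fall into 8 classes: 11 fibrillar chains, 6 chains of the basement membrane collagen type IV, 6 chains of the beaded filament type VI, 9 chains of FACIT collagens (fibril-associated collagens with interrupted triple helices), 3 short-chain network chains, 2 multiplexins, 4 transmembrane chains and 3 others. Male wild-type C57BL/6 mice, 6 weeks old and kept for a further week before the procedure, received 65 Gy or 75 Gy on the left lung as a single dose from an image-guided irradiator, while control mice were not irradiated. Lung RNA was taken 2 or 6 weeks later, with lesions sampled in the irradiated lungs, and polyadenylated RNA was sequenced with a stranded kit. The 17 libraries analysed here form 6 groups of 3, except for 65 Gy at 6 weeks, which has 2. Mice of all groups had the same strain, sex and genotype, and the labels do not say whether each library came from 1 mouse, so p-values measure the spread between libraries. The question was which collagen chains differed from control lung at each dose and time, in a model in which 2 weeks stands for the inflammatory stage and 6 weeks for the fibrotic stage.

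Collagens are secreted proteins in which alpha chains wind into a triple helix. Fibrillar collagens, chiefly types I and III, are trimmed by proteases and assemble into the fibrils that give lung its tensile strength and that accumulate in a scar. Type IV collagen is a sheet-like network under epithelium and endothelium. Its chains form separate trimers, one of the alpha 1 and alpha 2 chains and another of the alpha 3, alpha 4 and alpha 5 chains, the latter being characteristic of the thin membrane between alveolus and capillary. FACIT collagens and multiplexins sit on fibril surfaces or link membranes to the matrix around them, and transmembrane collagens anchor cells.

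The libraries held between 46764569 and 66797879 counts, and collagen genes took 0.555% to 0.904% of all counts. The 8 genes of alveolar type 2 cells, which mark lung, summed to 15972 to 28805 CPM. Levels are given as counts per 1000000 (CPM, scaled with TMM factors) where groups are compared for 1 gene, and as RPKM, the CPM per kilobase of exon, where genes are compared with each other. By mean RPKM over all libraries, Col4a1 (204), Col3a1 (178), Col4a2 (173), Col1a2 (97.2), Col6a1 (96.2) and Col1a1 (56.0) stood above the other 38 genes. At the low end, 15 genes had a mean RPKM below 1, among them the cartilage chains Col2a1, Col9a1, Col9a2, Col9a3, Col10a1, Col11a1 and Col11a2. The smallest collagen count above 0 was 4, and 26 of the 748 collagen values were 0. Of the 44 genes 43 passed the filter on low counts, and Col9a1, a chain of the cartilage FACIT type IX, did not.

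Collagen genes that passed both limits of the test were few at 2 weeks and more at 6 weeks, and nearly all of those were higher. A gene was called when the log2 fold change was 1 or more in size and its p from edgeR's quasi-likelihood test, after Benjamini-Hochberg adjustment over the 22052 genes tested, was no more than 0.05, and "rose" and "fell" are used for called genes. At 75 Gy and 2 weeks, 1 of the 43 tested genes rose and 1 fell, where 5.67% and 2.07% of all genes tested did (7.74% either way). At 65 Gy and 2 weeks 2 rose and 0 fell, against 3.47% and 0.88% of all genes (4.35% either way), and these counts lie near those backgrounds. DESeq2 also had 0 falling genes there. An unadjusted p under 0.05 in either direction was found for 11 of the 43 collagen genes, near the share of all genes (5611 of 22052). At 75 Gy and 6 weeks, 8 rose (18.6% against 7.28% of all genes) and 1 fell (2.33% against 3.13%), where 10.4% of all genes were called. At 65 Gy and 6 weeks, 7 rose (16.3% against 4.34%) and 0 fell (against 0.943%), where 5.28% of all genes were called. DESeq2 also had 0 falling genes, while 24 of the 43 collagen genes had an unadjusted p under 0.05 in either direction, beside 6485 of all 22052 genes. The median log2 fold change over the tested collagen genes was 0.04 and 0.10 at 2 weeks for 75 Gy and 65 Gy, and 0.39 and 0.45 at 6 weeks, beside 0.00, -0.01, 0.04 and 0.01 over all genes. The 2 doses share the controls of each time, so their comparisons are not independent of each other. Each count is relative to the controls of its own time, and these controls differed. From 2 to 6 weeks 29 of the 43 fitted control values were lower, with a median log2 fold change of -0.25 beside 0.01 over all genes.

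The 10 genes called in at least 1 of these 4 comparisons were Col5a2, Col11a1 and Col24a1 among the fibrillar chains, Col6a4 and Col6a5, Col22a1, Col10a1, Col15a1, Col17a1 and Col28a1. Of these, 7 rose at both doses at 6 weeks (Col5a2, Col10a1, Col11a1, Col15a1, Col22a1, Col24a1 and Col28a1), and Col22a1 was called in all 4. The shares of all genes called in at least 1 comparison, at both doses or in all 4 were not counted, so these joint counts have no background. Col10a1 passed the filter on low counts only through irradiated libraries. The other 33 tested genes were called in none. These include Col1a1 and Col1a2, the chains of type I, and all 6 chains of type IV. With the adjusted p alone and no limit on the fold, 14 collagen genes were higher and 6 lower at 75 Gy and 6 weeks (18% of all genes each way), and 12 were higher and 3 lower at 65 Gy (7.66% and 7.01% of all genes). At 2 weeks that count was 4 higher and 7 lower at 75 Gy (11.8% and 10.5%), and 4 higher and 1 lower at 65 Gy (6.7% and 4.29%).

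**Figure D1:**
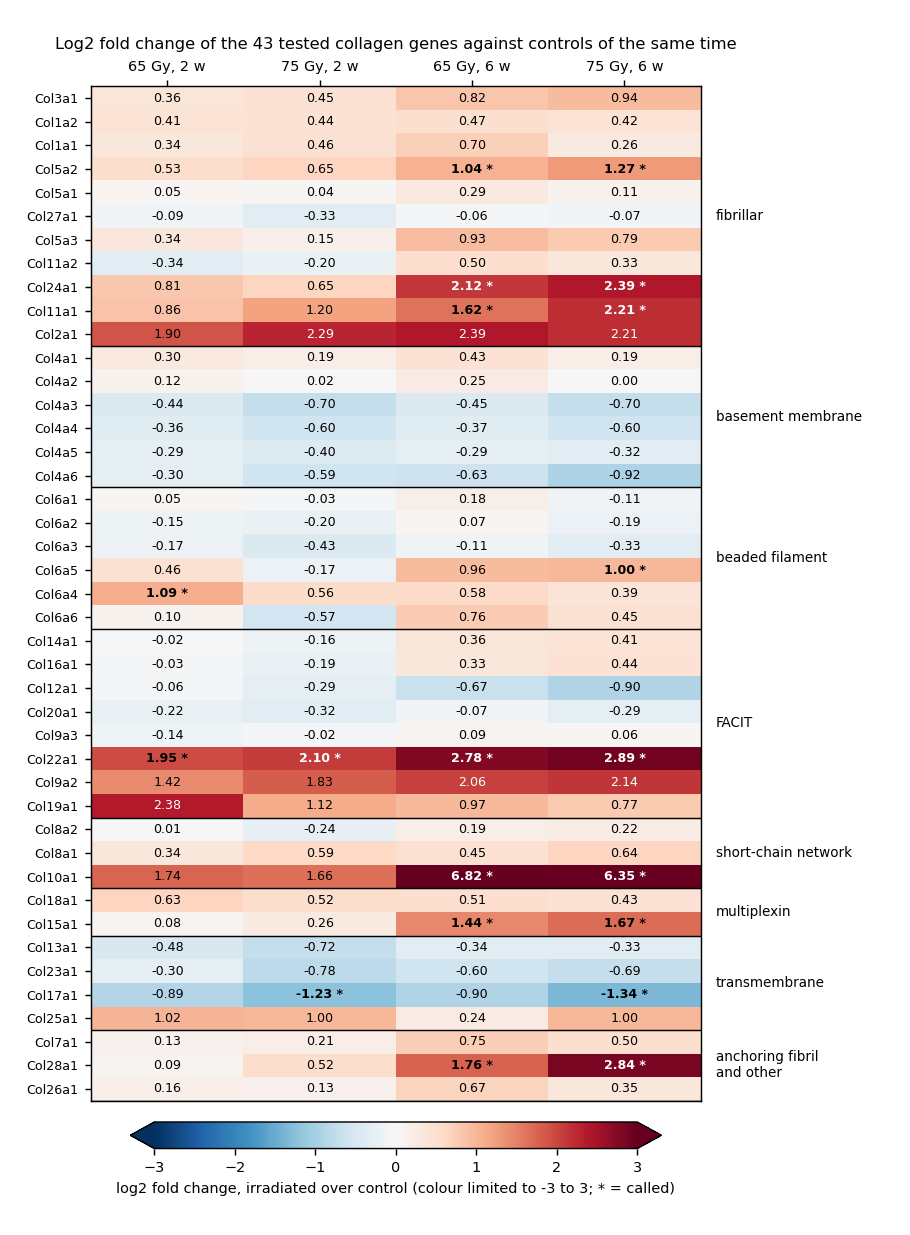
Log2 fold changes of the 43 tested collagen genes, 1 row a gene grouped by class and ordered by RPKM within it, against the controls of the same time, 1 column a dose and time. Asterisks mark called genes: Col22a1 carries one in all 4 columns, 7 genes carry one in both 6-week columns, and no type IV chain carries any.

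The fibrillar class had the highest class medians among the classes with more than 3 tested genes. The median log2 fold change was 0.45 at 75 Gy and 0.36 at 65 Gy at 2 weeks, and 0.79 and 0.82 at 6 weeks. Of its 11 chains none was called at 2 weeks, by edgeR or by DESeq2. An unadjusted p under 0.05 was found for 7 at 75 Gy and 2 at 65 Gy, beside 7721 and 5611 of all 22052 genes. At 6 weeks 3 of 11 rose at each dose (27.3%), where 7.28% and 4.34% of all genes rose at 75 and 65 Gy.

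Col5a2, the alpha 2 chain of type V, which is built into type I fibrils and limits their width, was the most abundant gene that rose. It measured 206, 166 and 202 CPM in the controls of 2 weeks, 292, 260.0 and 277 after 65 Gy and 324, 272 and 306 after 75 Gy. At 6 weeks it measured 106, 122 and 114 CPM in controls, 230.4 and 237 after 65 Gy and 249, 322 and 250.04 after 75 Gy. Every irradiated library lay above every control of its time. The fitted log2 fold change was 1.27 ± 0.12 (SE), adjusted p = 5e-06 at 75 Gy and 1.04 ± 0.13 (SE), adjusted p = 0.00012 at 65 Gy at 6 weeks, while at 2 weeks it was 0.65 ± 0.11 (SE), adjusted p = 0.0011 and 0.53 ± 0.11 (SE), adjusted p = 0.0084, under the limit on the fold. The 65 Gy value at 6 weeks lay just inside that limit and fell to 0.99 without control replicate 3135. Its partner chain Col5a1 was called in no comparison, with log2 fold changes from 0.04 to 0.29, and the RPKM ratio of Col5a2 to Col5a1 was 1.64 to 2.66 over the 6 control libraries and 2.71 to 4.40 over the 11 irradiated ones. Col5a3, another type V chain, had 0.79 ± 0.19 (SE), adjusted p = 0.0053, and 0.93 ± 0.21 (SE), adjusted p = 0.0095, at 75 and 65 Gy at 6 weeks.

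Col3a1, the only chain of type III, the pliable fibril of lung and vessel wall, differed in the same direction without reaching the fold limit. It measured 724, 904 and 1334 CPM in the controls of 2 weeks, 1457, 1129 and 1212 after 65 Gy and 1426, 1422 and 1199.7 after 75 Gy, where the 3 groups overlap. Its 6-week levels were 412, 556 and 499.5 CPM in controls, 921 and 809 after 65 Gy and 894, 1094 and 824 after 75 Gy. The 6-week controls were the lowest group, and the irradiated lungs of 6 weeks lay within the range of the 2-week controls. The fitted log2 fold change was 0.94 ± 0.19 (SE), adjusted p = 0.0018 at 75 Gy and 0.82 ± 0.21 (SE), adjusted p = 0.018 at 65 Gy. It passed the fold limit at 75 Gy without control replicate 3136 or without 75 Gy replicate 3143.

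The type I chains did not pass. Col1a1 measured 180.0, 216 and 223 CPM in the controls of 6 weeks, 368 and 304 after 65 Gy and 290.1, 251 and 201 after 75 Gy, so that both 65 Gy libraries lay above the controls and the 75 Gy libraries overlapped with them. At 2 weeks it measured 266, 303 and 424 CPM in controls, 515, 345 and 395 after 65 Gy and 328, 551 and 489 after 75 Gy, again with overlap. Its log2 fold changes were 0.46 ± 0.21 (SE), adjusted p = 0.14, and 0.34 ± 0.21 (SE), adjusted p = 0.36, at 75 and 65 Gy at 2 weeks, then 0.26 ± 0.21 (SE), adjusted p = 0.36, and 0.70 ± 0.24 (SE), adjusted p = 0.059, at 6 weeks. None passed.

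Col1a2, the second type I chain, measured 369, 469.8 and 627 CPM in the controls of 2 weeks, 778, 543 and 628 after 65 Gy and 549, 741 and 693 after 75 Gy. In the 6-week lungs it measured 311, 369.6 and 375 CPM in controls, 513 and 462 after 65 Gy and 476, 520.4 and 411 after 75 Gy, with each irradiated library above each control. The log2 fold changes at 6 weeks, 0.42 ± 0.18 (SE), adjusted p = 0.086, and 0.47 ± 0.20 (SE), adjusted p = 0.13, at 75 and 65 Gy, did not pass.

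**Figure D2:**
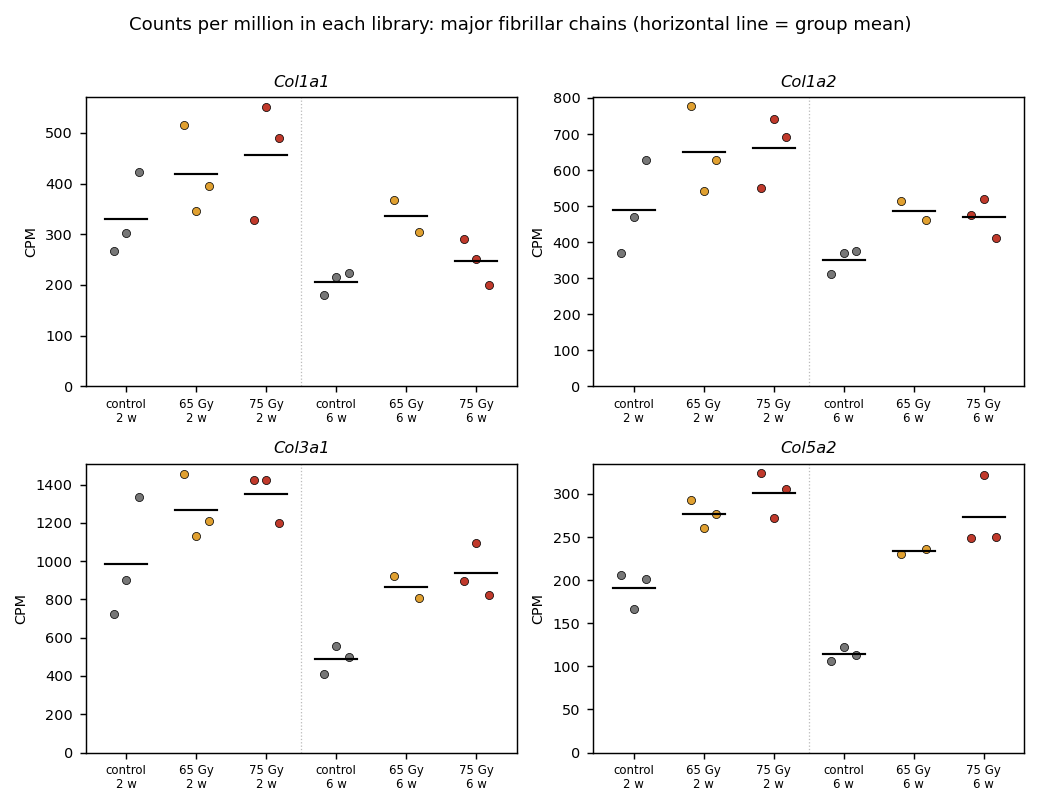
CPM (linear axis from 0) of Col1a1, Col1a2, Col3a1 and Col5a2 in each of the 17 libraries by group, 1 point a library and a line at the group mean. Col5a2 shows no overlap between irradiated and control libraries at either time, and in all 4 genes the 6-week controls have the lowest mean.

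Among the scarce fibrillar chains, Col24a1 and Col11a1 rose at 6 weeks at both doses. Col24a1 encodes a chain of a minor fibrillar type and measured 0.308, 0.606 and 0.524 CPM in the controls of 6 weeks, 1.78 and 2.39 after 65 Gy and 2.80, 3.13 and 1.61 after 75 Gy. All 5 irradiated libraries lay above the controls (log2 fold change 2.39 ± 0.41 (SE), adjusted p = 0.00051, at 75 Gy and 2.12 ± 0.43 (SE), adjusted p = 0.0055, at 65 Gy). Its 2-week levels were 0.386, 0.814 and 0.896 CPM in controls, 1.13, 1.16 and 1.39 after 65 Gy and 0.700, 0.813 and 1.79 after 75 Gy, and it was not called. Col11a1, a chain of type XI, which nucleates cartilage fibrils, measured 0.227, 0.2496 and 0.105 CPM in controls of 6 weeks, 0.726 and 0.478 after 65 Gy and 0.804, 1.17 and 0.749 after 75 Gy, again without overlap (2.21 ± 0.39 (SE), adjusted p = 0.00068, and 1.62 ± 0.43 (SE), adjusted p = 0.021). At 2 weeks Col11a1 measured 0.101, 0.171 and 0.210 CPM in controls, 0.323, 0.206 and 0.356 after 65 Gy and 0.368, 0.266 and 0.492 after 75 Gy, where the 65 Gy group overlapped with the controls. At 75 Gy the log2 fold change of 2 weeks was 1.202 ± 0.42 (SE), adjusted p = 0.052, just outside the limit. The 65 Gy call at 6 weeks was lost without control replicate 3137 or 65 Gy replicate 3138. The remaining chains of the class, Col2a1, Col11a2 and Col27a1, were called in none of the 4 comparisons.

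Levels of fibroblast and muscle markers are given beside those of the fibrillar chains. The summed level of 10 fibroblast genes was 3552 to 4077 CPM in the controls of 6 weeks, 2678 to 2828 after 65 Gy and 2728 to 3132.03 after 75 Gy, with 1 of the 10 (Lum, a fibril proteoglycan) called higher at 75 Gy, log2 fold change 1.14 ± 0.19 (SE), adjusted p = 0.00038. At 2 weeks the sum was 3517 to 4122, 2634 to 2936 and 1693 to 3367 CPM, and Pi16 fell at both doses. The median log2 fold change of the 10 genes was -0.63 and -0.46 at 75 and 65 Gy at 2 weeks. It was -0.50 and -0.36 at 6 weeks. By the adjusted p alone 1 was higher and 5 lower at 75 Gy and 2 weeks (11.8% and 10.5% of all genes). At 65 Gy 0 were higher and 3 lower (6.7% and 4.29%). At 6 weeks 2 were higher and 3 lower at 75 Gy (18% each way), and 0 higher and 1 lower at 65 Gy (7.66% and 7.01%). The sum of 6 smooth muscle and myofibroblast genes overlapped between groups at 6 weeks, 534 to 815 CPM in controls, 513 to 649 after 65 Gy and 529 to 704 after 75 Gy. At 2 weeks it was 533 to 735, 401 to 656 and 347 to 466 CPM, and Cnn1 fell at 75 Gy. Over all genes 7.28% rose at 75 Gy and 6 weeks, and 2.07% and 0.88% fell at 75 and 65 Gy at 2 weeks. The part of fibroblasts and muscle in the fibrillar values was not tested. In bulk tissue, fewer cells of a type and less RNA per cell cannot be told apart.

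The type IV genes lie in head-to-head pairs, each on opposite strands: Col4a1 and Col4a2 on chromosome 8, Col4a3 and Col4a4 on chromosome 1, and Col4a5 and Col4a6 on the X chromosome. In the GRCm38.p6 gene models Col4a1 (minus strand, chr8:11198423-11312889) and Col4a2 (plus strand, chr8:11312805-11449287) overlap by 85 bases, Col4a3 and Col4a4 by 114, and Col4a5 and Col4a6 lie 1274 bases apart. The RefSeq promoter windows of Col4a1 and Col4a2, each 250 bases before to 50 after a transcript start, are shown because they overlap in part and are read in opposite directions. The Col4a2 window is placed at the start of the gene model, chr8:11312805, and the Col4a1 window at 11312826, which lies 63 bases inside its gene model. Capitals mark the GC box GGGCGG and the CCAAT box CCAAT, read on both strands (CCGCCC and ATTGG). The first is chr8:11312777-11313076 on the minus strand and the second chr8:11312555-11312854 on the plus strand.
Col4a1: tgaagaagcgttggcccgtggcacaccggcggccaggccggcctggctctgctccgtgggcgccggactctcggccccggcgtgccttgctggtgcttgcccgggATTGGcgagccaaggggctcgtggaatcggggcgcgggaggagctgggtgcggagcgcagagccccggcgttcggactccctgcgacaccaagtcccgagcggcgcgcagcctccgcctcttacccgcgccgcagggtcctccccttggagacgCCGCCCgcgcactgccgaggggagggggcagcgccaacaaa
Col4a2: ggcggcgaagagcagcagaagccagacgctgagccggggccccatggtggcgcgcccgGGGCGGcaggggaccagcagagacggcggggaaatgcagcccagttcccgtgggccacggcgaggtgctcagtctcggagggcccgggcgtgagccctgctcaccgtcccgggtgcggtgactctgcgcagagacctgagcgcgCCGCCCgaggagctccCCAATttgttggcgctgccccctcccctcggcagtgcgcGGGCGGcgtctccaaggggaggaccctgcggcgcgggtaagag
With these starts the windows share 78 of their 300 bases, chr8:11312777-11312854, which hold 1 GC box and 0 CCAAT boxes. Of the 38 windows of 35 collagen genes, 13 are placed at the start of the gene model and 25 at another start within it. Of the 38 windows, 23 hold a GC box and 13 a CCAAT box. Over all 32851 mouse windows of this length, 35.7% hold the GC box and 37.4% the CCAAT box. A match describes letters in a window and is not evidence of a bound factor.

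In the type IV class, Col4a3, Col4a4 and Col4a6 were lower at 75 Gy by the adjusted p alone, at both times. By that measure 10.5% of all genes were lower at 2 weeks and 18% at 6 weeks. The log2 fold changes of Col4a1 and Col4a2 were between 0.00 and 0.43 and did not pass. No chain reached the fold limit, by edgeR or DESeq2. At 65 Gy 0 of 6 passed the adjusted p, where 3 and 4 had an unadjusted p under 0.05 at 2 and 6 weeks, beside 5611 and 6485 of all 22052 genes. The class median of the log2 fold change was -0.49 and -0.29 at 75 and 65 Gy at 2 weeks, and -0.46 and -0.33 at 6 weeks.

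Col4a1 measured 1121, 1238 and 1538 CPM in the controls of 2 weeks, 1681, 1483 and 1641 after 65 Gy and 1498, 1489.6 and 1457 after 75 Gy. The levels of 6 weeks were 1039, 1076 and 1103 CPM in controls, 1276 and 1612 after 65 Gy and 1363, 1257 and 1055 after 75 Gy. Its log2 fold changes ranged from 0.19 to 0.43 and none passed, with the largest 0.43 ± 0.14 (SE), adjusted p = 0.053, at 65 Gy and 6 weeks. Col4a2 measured 1006, 1100.2 and 1344 CPM in controls of 2 weeks, 1297, 1156 and 1288 after 65 Gy and 1228, 1191 and 1078 after 75 Gy. At 6 weeks Col4a2 measured 970.3, 989.9 and 999 CPM in controls, 1059 and 1287 after 65 Gy and 1163, 924 and 865 after 75 Gy. Control and irradiated libraries of Col4a2 overlapped at 2 weeks at both doses and at 75 Gy at 6 weeks. The RPKM ratio of Col4a1 to Col4a2 was 1.04 to 1.12 over the controls and 1.14 to 1.33 over the irradiated libraries.

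Col4a3, mutated with Col4a4 and Col4a5 in Alport syndrome, measured 479.6, 533 and 524 CPM in the controls of 2 weeks, 321, 397 and 418 after 65 Gy and 353, 352 and 239 after 75 Gy. Measured at 6 weeks, it stood at 536, 542 and 506 CPM in controls, 342 and 434 after 65 Gy and 402, 296 and 274 after 75 Gy. Every irradiated library lay below every control of its time. At 75 Gy the log2 fold change was -0.70 ± 0.17 (SE), adjusted p = 0.0071, at 2 weeks and -0.70 ± 0.17 (SE), adjusted p = 0.0045, at 6 weeks, and at 65 Gy it was -0.44 and -0.45 with adjusted p = 0.11 and 0.13. Col4a4 was lower too, from 325, 391.8 and 418 CPM in the controls of 2 weeks to 254, 309 and 321 after 65 Gy and 263, 287 and 198 after 75 Gy. At 6 weeks Col4a4 measured 365, 377 and 359 CPM in controls, 262 and 308 after 65 Gy and 282, 242 and 203 after 75 Gy. At 75 Gy its log2 fold change was -0.60 ± 0.15 (SE), adjusted p = 0.0097, at 2 weeks and -0.60 ± 0.15 (SE), adjusted p = 0.0063, at 6 weeks. The kit marks strand, but whether counting used it is not given in the sources used here, so reads in the 114 shared bases may have gone to either gene.

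Col4a5, the remaining chain of that trimer, measured 171, 225 and 284 CPM in the controls of 2 weeks, 167, 193 and 196 after 65 Gy and 215, 172 and 128 after 75 Gy. At 6 weeks Col4a5 measured 206, 221 and 201 CPM in controls, 157 and 184 after 65 Gy and 183, 179 and 142 after 75 Gy. Its log2 fold changes, from -0.40 to -0.29, did not pass, the smallest adjusted p being 0.13. Col4a6, which also pairs with the alpha 5 chain, measured 25.4, 40.2 and 42.98 CPM in the controls of 2 weeks, 27.6, 31.3 and 29.5 after 65 Gy and 27.4, 28.0 and 16.9 after 75 Gy. At 6 weeks Col4a6 measured 35.5, 40.1 and 37.2 CPM in controls, 25.7 and 23.0 after 65 Gy and 20.9, 19.0 and 19.6 after 75 Gy. At 6 weeks all irradiated libraries lay below the controls, and the log2 fold change was -0.92 ± 0.19 (SE), adjusted p = 0.0017, at 75 Gy and -0.63 ± 0.21 (SE), adjusted p = 0.059, at 65 Gy. The RPKM ratio of Col4a1 to Col4a3 was 3.002 to 3.79 in controls of 2 weeks and 2.51 to 2.82 in those of 6 weeks. It was 4.83 to 7.88 in irradiated lungs of 2 weeks and 4.39 to 5.50 in those of 6 weeks, so the groups did not overlap at either time.

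Levels of alveolar and vessel cell markers are given beside those of the type IV chains. The summed level of 8 alveolar type 1 genes was 5321 to 5881 CPM in the controls of 2 weeks, 4429 to 5072 after 65 Gy and 3439.9 to 5292 after 75 Gy, and 5884 to 6525, 4300.2 to 4781 and 3842 to 4461 CPM at 6 weeks, with 1 of 8 (Rtkn2) called lower at 75 Gy and 6 weeks. The sum of 8 endothelial genes was 3690.2 to 3772 CPM in the controls of 6 weeks, 1989 to 2183 after 65 Gy and 1536 to 1836 after 75 Gy, and 3364 to 3844, 2413 to 2453 and 1368 to 2617 CPM at 2 weeks. Of these 8 genes 5 fell at 75 Gy and 6 weeks, among them the junction gene Cdh5 (-1.40 ± 0.17 (SE), adjusted p = 4.9e-05) and the receptor genes Kdr (-1.40 ± 0.17 (SE), adjusted p = 5.5e-05) and Tek (-1.57 ± 0.21 (SE), adjusted p = 8.4e-05). At 65 Gy and 6 weeks 1 of the endothelial genes fell, and at 2 weeks 2 fell at each dose. Over all genes 3.13% and 0.943% fell at 75 and 65 Gy at 6 weeks, and 2.07% and 0.88% at 2 weeks. The sum of 8 alveolar type 2 genes was 18806 to 20796 CPM in the controls of 6 weeks, 21130.2 to 26987 after 65 Gy and 20863 to 28805 after 75 Gy, and at 2 weeks the groups overlapped. The part of these cells in the type IV values was not tested.

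**Figure D3:**
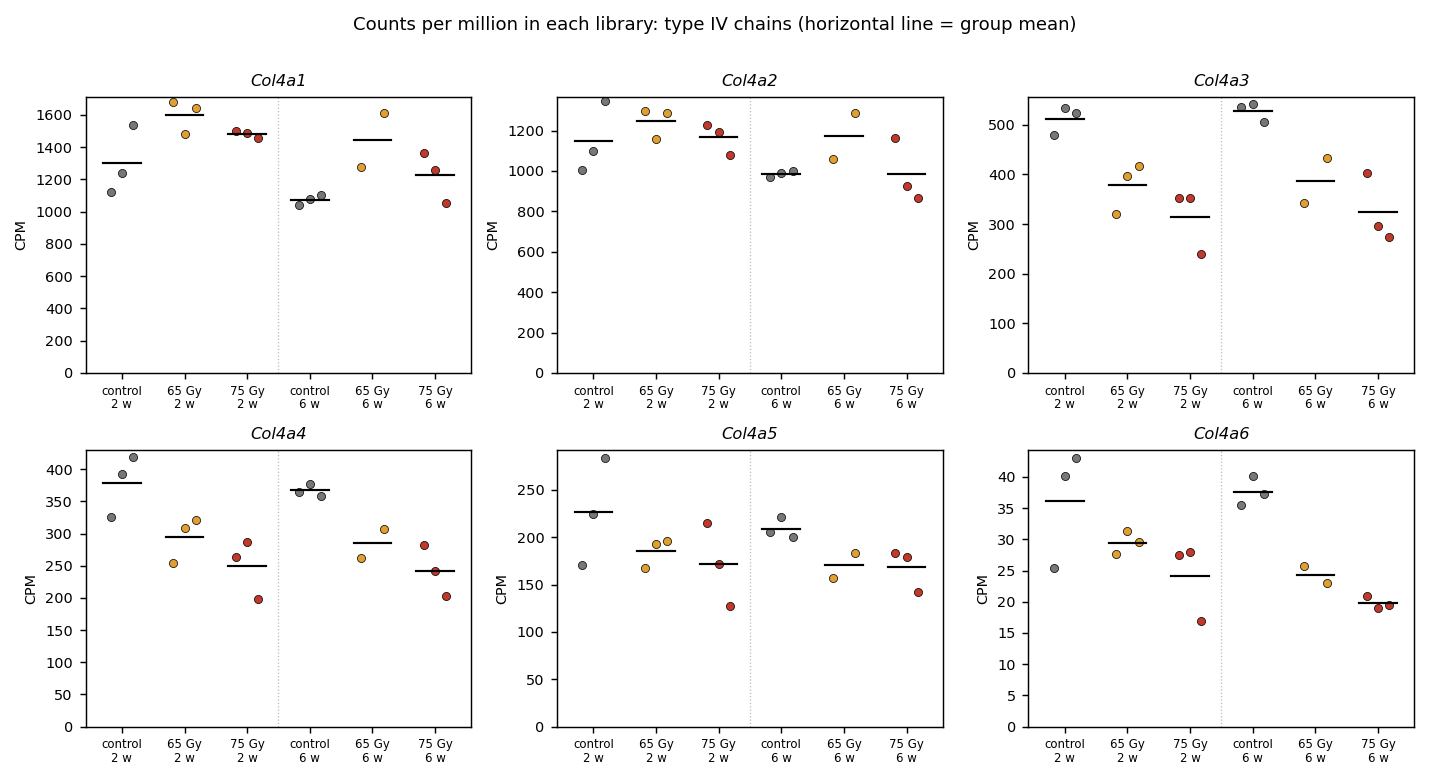
CPM (linear axis from 0) of the 6 type IV chains in each library by group, 1 point a library and a line at the group mean. Col4a3 lies between 479.6 and 542 CPM in the 6 controls and between 239 and 434 CPM in the 11 irradiated libraries, while the ranges of Col4a1 and Col4a2 overlap at 2 weeks.

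Col22a1, a FACIT collagen of tissue junctions such as that of muscle and tendon, was the only collagen gene called at both doses and both times. It measured 0.609, 0.300 and 0.458 CPM in the controls of 2 weeks, 2.03, 1.76 and 1.51 after 65 Gy and 1.73, 1.94 and 2.22 after 75 Gy. At 6 weeks it measured 0.178, 0.2496 and 0.244 CPM in controls, 1.48 and 1.60 after 65 Gy and 1.64, 1.79 and 1.59 after 75 Gy. Irradiated libraries lay above all controls and covered a similar range at both times, between 1.48 and 2.22 CPM. The log2 fold change was 2.098 ± 0.24 (SE), adjusted p = 4.6e-05, and 1.95 ± 0.24 (SE), adjusted p = 0.00015, at 75 and 65 Gy at 2 weeks, and 2.89 ± 0.25 (SE), adjusted p = 3.7e-06, and 2.78 ± 0.27 (SE), adjusted p = 1.7e-05, at 6 weeks. No fit without 1 library lost any of these 4 calls.

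None of the other FACIT genes was called by edgeR or DESeq2 in these 4 comparisons. Of the 8 tested, Col22a1 included, 3 and 2 had an unadjusted p under 0.05 at 75 and 65 Gy at 2 weeks and 5 and 3 at 6 weeks. Of all 22052 genes, 7721 and 5611 had such a p at 2 weeks and 10046 and 6485 at 6 weeks. Col14a1, which binds the surface of type I fibrils and was the FACIT gene with the highest RPKM, measured 51.1, 60.7 and 58.9 CPM in controls of 6 weeks, 75.3 and 70.7 after 65 Gy and 72.7, 78.7 and 74.9 after 75 Gy. In the 2-week lungs it measured 48.3, 73.3 and 91.7 CPM in controls, 81.1, 69.9 and 60.1 after 65 Gy and 67.6, 74.1 and 49.9 after 75 Gy. The 6-week groups did not overlap, but the log2 fold changes, 0.41 and 0.36, had adjusted p = 0.11 and 0.27. Col12a1, a related fibril-surface chain, was lower at 6 weeks, from 98.1 to 108 CPM in controls to 62.9 to 68.2 after 65 Gy and 54.0 to 57.9 after 75 Gy, without overlap. Its log2 fold changes were -0.90 ± 0.11 (SE), adjusted p = 4.1e-05, and -0.67 ± 0.12 (SE), adjusted p = 0.0027, past the adjusted p and under the fold limit. At 2 weeks they were -0.29 and -0.06, and neither passed. Col16a1 had 0.44 ± 0.12 (SE), adjusted p = 0.0094, at 75 Gy and 6 weeks. Col9a2, Col9a3, Col19a1 and Col20a1 passed nothing, and of them Col9a2 and Col19a1 never exceeded 22 counts in a library.

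Col28a1 encodes a von Willebrand factor A domain collagen that is best known around the glia of peripheral nerves. The levels of 2 weeks were 2.92, 3.77 and 3.72 CPM in controls, 3.503, 4.11 and 3.44 after 65 Gy and 4.66, 3.67 and 6.59 after 75 Gy. Its 6-week levels were 2.21, 1.94 and 2.55 CPM in controls, 6.003 and 9.13 after 65 Gy and 11.8, 19.3 and 17.1 after 75 Gy. The 2-week groups overlapped, whereas at 6 weeks the controls, the 65 Gy libraries and the 75 Gy libraries formed 3 separate ranges in that order. The log2 fold change was 0.52 ± 0.23 (SE), adjusted p = 0.13, and 0.09 ± 0.23 (SE), adjusted p = 0.87, at 75 and 65 Gy at 2 weeks, and 2.84 ± 0.24 (SE), adjusted p = 3.1e-06, and 1.76 ± 0.26 (SE), adjusted p = 0.00052, at 6 weeks. The difference of the 75 Gy effect between the times was itself called, 2.33 ± 0.33 (SE), adjusted p = 0.0084, and remained so in all 17 fits without 1 library. At 65 Gy that difference was 1.67 ± 0.35 (SE), adjusted p = 0.14, which did not pass with edgeR and was called by DESeq2. The direct contrast of the doses at 6 weeks was 1.08 ± 0.26 (SE), adjusted p = 0.74, which did not pass.

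The RefSeq promoter window of Col28a1, chr6:8192568-8192867 on the minus strand of GRCm38.p6, is given for contrast with those of the type IV pair. It is placed at 8192617, which lies 1092 bases inside the gene model (chr6:7997100-8193709), so it does not cover the outermost start. It holds neither a GC box nor a CCAAT box on either strand, so no base is in capitals.
Col28a1: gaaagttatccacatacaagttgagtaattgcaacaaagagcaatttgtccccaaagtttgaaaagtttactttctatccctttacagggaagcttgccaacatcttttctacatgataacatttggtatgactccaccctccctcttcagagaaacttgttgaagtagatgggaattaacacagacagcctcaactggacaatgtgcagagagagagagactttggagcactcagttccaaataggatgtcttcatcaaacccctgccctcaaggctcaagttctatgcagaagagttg
The hexamer CAGACA, which occurs in 21.0% of all windows on either strand (TGTCTG in reverse), is found 1 time in it.

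Col28a1 was the only collagen gene among the 56 genes of the whole table (0.254% of those tested) whose 75 Gy effect differed between the times. By the adjusted p alone the effect was greater for 0.236% of all genes and smaller for 0.0635%, and among collagen genes greater for Col28a1 and smaller for none. By DESeq2 Col15a1 and Col6a5 were called as well. For 65 Gy edgeR called 0 collagen genes where 3 genes in all (0.0136%) were called, and DESeq2 called 1 collagen gene. An unadjusted p under 0.05 was found there for 9 collagen genes, beside 1908 of all 22052 genes. Genes called at 6 weeks and not at 2 weeks, other than Col28a1 at 75 Gy, were therefore not shown to differ between the times. The median difference of effects over the tested collagen genes was 0.09 at 75 Gy and 0.22 at 65 Gy (log2), beside 0.00 and -0.01 over all genes.

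**Figure D4:**
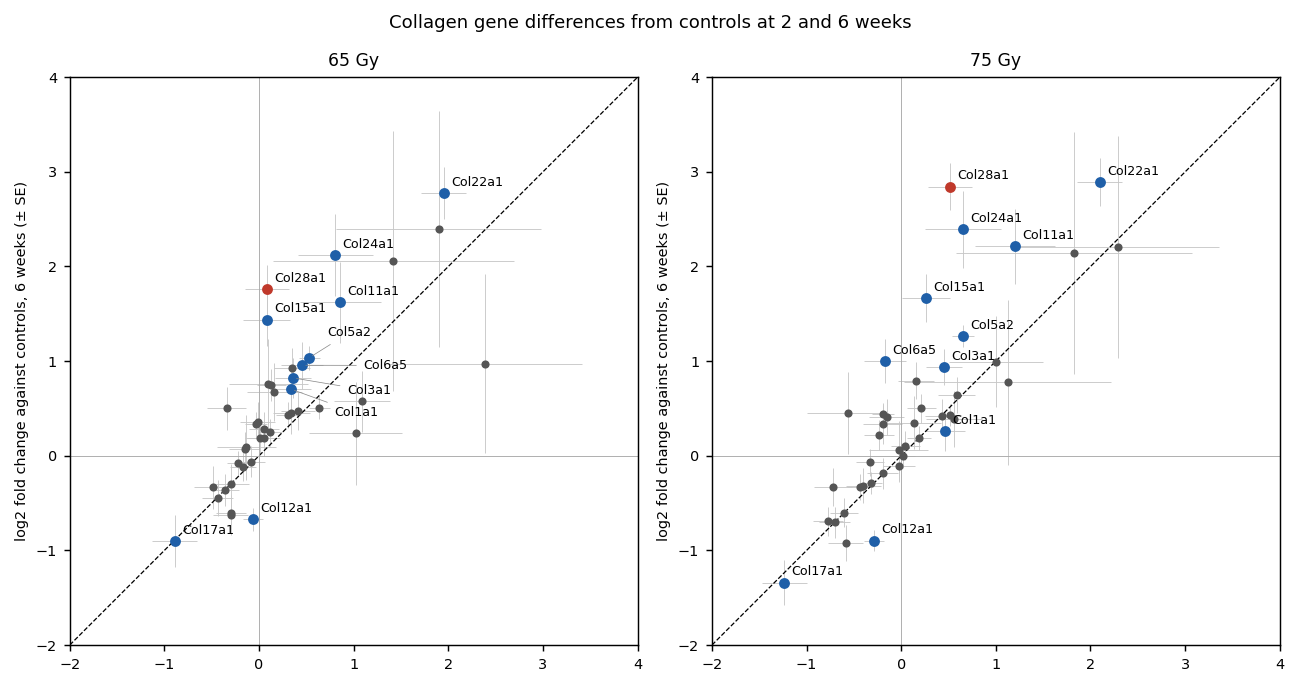
Log2 fold change against controls at 6 weeks (vertical axis) by that at 2 weeks (horizontal axis) for 42 tested collagen genes, 65 Gy on the left and 75 Gy on the right, bars being SE and the dashed line marking equal values. Col10a1, whose 6-week controls are all 0, is left out, and Col28a1 (red) lies farthest above the line at 75 Gy, at 0.52 and 2.84. The other named genes are in blue.

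The other 2 genes grouped with it are Col7a1, the anchoring fibril under epithelia, and Col26a1. Col7a1, the most abundant of the 3 per length, measured 14.4, 18.6 and 19.2 CPM in the controls of 6 weeks, 29.7 and 28.7 after 65 Gy and 26.7, 25.9 and 21.1 after 75 Gy. Measured at 2 weeks, it stood at 13.3, 15.7 and 18.9 CPM in controls, 18.6, 16.8 and 16.95 after 65 Gy and 15.1, 20.7 and 19.6 after 75 Gy. Its log2 fold change at 6 weeks, 0.50 ± 0.15 (SE), adjusted p = 0.019, at 75 Gy and 0.75 ± 0.17 (SE), adjusted p = 0.0089, at 65 Gy, stayed under the fold limit. Col26a1 passed nothing.

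The 2 multiplexins, which carry glycosaminoglycan chains and stand between basement membranes and the matrix, were both higher at 6 weeks. Col15a1 measured 9.67, 11.6 and 15.9 CPM in the controls of 6 weeks, 33.8 and 33.3 after 65 Gy and 35.5, 44.5 and 38.1 after 75 Gy, and rose at both doses (1.67 ± 0.25 (SE), adjusted p = 0.00024, and 1.44 ± 0.27 (SE), adjusted p = 0.0036) with no overlap. At 2 weeks it measured 12.7, 16.7 and 22.4 CPM in controls, 25.1, 13.7 and 15.9 after 65 Gy and 16.2, 20.3 and 25.6 after 75 Gy, and the groups overlapped (0.26 and 0.08, adjusted p = 0.5 and 0.88). The difference between the times at 75 Gy, 1.41 ± 0.35 (SE), adjusted p = 0.12, did not pass with edgeR.

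Col18a1, whose carboxyl end is released as endostatin, measured 65.6, 64.6 and 82.7 CPM in the controls of 2 weeks, 126, 94.5 and 110.0 after 65 Gy and 101, 101 and 103 after 75 Gy. In the 6-week lungs it measured 67.9, 72.4 and 70.1 CPM in controls, 93.2 and 106 after 65 Gy and 101, 93.3 and 89.0 after 75 Gy. Irradiated libraries were above all controls at both times, by log2 fold changes of 0.52, 0.63, 0.43 and 0.51 (75 and 65 Gy at 2 weeks, then at 6 weeks), all past the adjusted p, the largest of which was 0.013, and under the fold limit. The RPKM ratio of Col15a1 to Col18a1 was 0.160 to 0.256 in controls of 6 weeks and 0.353 to 0.538 in irradiated lungs, while the ranges overlapped at 2 weeks.

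In the beaded filament class, type VI, the 3 abundant chains were not called while 2 scarce ones were. Col6a1 measured 319.6, 403 and 574 CPM in the controls of 2 weeks, 502, 411 and 432 after 65 Gy and 448, 449 and 376 after 75 Gy. The levels of 6 weeks were 319, 384 and 336 CPM in controls, 391.9 and 395 after 65 Gy and 357, 316 and 292 after 75 Gy. Its log2 fold changes lay between -0.11 and 0.18. Col6a2, its partner, lay between -0.20 and 0.07, and Col6a3 between -0.43 and -0.11, with adjusted p = 0.035 at 75 Gy and 2 weeks.

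Col6a4 and Col6a5, alternative chains of type VI, each rose in 1 comparison, and both calls were lost when single libraries were left out. Col6a4 measured 1.14, 0.600 and 1.45 CPM in the controls of 2 weeks, 2.31, 2.22 and 2.26 after 65 Gy and 1.84, 1.33 and 1.55 after 75 Gy. It rose at 65 Gy (1.09 ± 0.30 (SE), adjusted p = 0.029), and the call was lost without control replicate 3127 or without any 1 of the 65 Gy replicates 3129, 3130 and 3131. Measured at 6 weeks, it stood at 0.730, 1.30 and 1.33 CPM in controls, 1.27 and 2.07 after 65 Gy and 1.44, 1.45 and 1.497 after 75 Gy, and it was not called.

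Col6a5 measured 1.04, 1.44 and 1.15 CPM in the controls of 6 weeks, 2.75 and 1.95 after 65 Gy and 2.20, 2.26 and 2.81 after 75 Gy, with no overlap. It rose at 75 Gy at the limit itself (1.001 ± 0.23 (SE), adjusted p = 0.0038). It was not called by DESeq2, with RLE factors, or without replicate 3135, 3137, 3138, 3140 or 3143. At 65 Gy the value was 0.96 ± 0.25 (SE), adjusted p = 0.02. Its 2-week levels were 1.38, 2.29 and 2.42 CPM in controls, 2.71, 2.55 and 3.10 after 65 Gy and 1.93, 1.95 and 1.53 after 75 Gy, and the log2 fold changes were 0.46 and -0.17, neither of which passed. Col6a6 was not called.

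In the short-chain network class, Col10a1, the collagen of hypertrophic cartilage, was at or near 0 everywhere. Its counts were 0 in all 3 controls of 6 weeks, 29 over the 2 libraries of 65 Gy and 30 over the 3 of 75 Gy. Set against a floor of 3 counts over the control group, it was at least 14.5-fold higher at 65 Gy and at least 10.4-fold higher at 75 Gy. In CPM it measured 0.280 and 0.205 after 65 Gy and 0.0820, 0.318 and 0.128 after 75 Gy at 6 weeks. In the 2-week lungs it measured 0, 0.128 and 0 in controls, 0.226, 0.111 and 0.0890 after 65 Gy and 0.210, 0.0739 and 0.123 after 75 Gy, and it was not called. The adjusted p at 6 weeks was 0.0083 at 75 Gy and 0.015 at 65 Gy, and the latter call was lost without 65 Gy replicate 3138. Its controls held 6 counts at 2 weeks and 0 at 6 weeks, so it passed the filter on low counts only through irradiated libraries. With at least 10 counts required in every library it was not tested, nor at 75 Gy with only the groups compared. The floor covers counting error only.

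Col8a2 and Col8a1 form the hexagonal network of type VIII, known from vessel walls and the cornea. Col8a2, the more abundant per length, measured 16.6, 22.8 and 17.8 CPM in the controls of 2 weeks, 14.8, 22.1 and 20.4 after 65 Gy and 17.5, 18.2 and 12.9 after 75 Gy. At 6 weeks it measured 23.7, 24.96 and 24.98 CPM in controls, 26.9 and 29.0 after 65 Gy and 26.1, 29.1 and 30.6 after 75 Gy, and it passed nothing. Col8a1 had 0.59 ± 0.19 (SE), adjusted p = 0.041, and 0.64 ± 0.19 (SE), adjusted p = 0.018, at 75 Gy at 2 and 6 weeks, under the fold limit.

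Other cartilage genes were scarce. Over the 7 tested, the median log2 fold change was 1.515 and 1.36 at 75 and 65 Gy at 2 weeks. It was 1.52 and 1.33 at 6 weeks. Their summed level did not overlap between irradiated and control libraries at either time. The sum of 8 cartilage genes was 1.41 to 2.23 CPM in the controls of 6 weeks, 3.33 to 4.49 after 65 Gy and 3.85 to 4.65 after 75 Gy, and 1.62 to 3.70, 3.95 to 5.97 and 4.75 to 5.32 CPM at 2 weeks. At 75 Gy and 6 weeks 2 of the 7 tested were called higher, Comp (1.52 ± 0.49 (SE), adjusted p = 0.026) and Acan, which was 0 in all 3 controls and 0.0531 to 0.274 CPM after 75 Gy. At 65 Gy and 6 weeks, where Col10a1 and Col11a1 rose, edgeR called 0 of the 7, and 2 had an unadjusted p under 0.05, beside 6485 of all 22052 genes. Over all genes 7.28% and 4.34% rose at 75 and 65 Gy at 6 weeks. At 2 weeks, where neither collagen gene was called, Hapln1 rose at both doses, 1 of the 7, beside 5.67% and 3.47% of all genes at 75 and 65 Gy. Of the defining markers, Snorc was above 0 in 1 library only, Matn1 and Cnmd were 0 in all controls of 2 weeks, and Acan was 0 in all controls of 6 weeks. Among the collagens of cartilage, Col2a1 reached at most 0.606 CPM and was not called, with log2 fold changes of 1.90 to 2.39 and SE of 1.07 to 1.25. Col9a1, which was not tested, had 0 counts in all 6 controls, 18 and 4 counts over the 2-week groups of 65 and 75 Gy, and 9 and 23 over those of 6 weeks. The part of cartilage in these values was not tested.

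The transmembrane class had median log2 fold changes between -0.75 and -0.39 in the 4 comparisons, the lowest of any class with more than 3 tested genes. Col17a1, which ties epithelial cells to their basement membrane in hemidesmosomes, was the only collagen gene that fell. It measured 8.65, 9.57 and 10.7 CPM in the controls of 2 weeks, 5.29, 4.85 and 5.47 after 65 Gy and 4.87, 5.04 and 2.37 after 75 Gy. Its 6-week levels were 8.06, 10.6 and 10.8 CPM in controls, 4.93 and 5.58 after 65 Gy and 4.97, 3.01 and 3.63 after 75 Gy. All 11 irradiated libraries lay below all 6 controls. It fell at 75 Gy at 2 weeks (-1.23 ± 0.24 (SE), adjusted p = 0.0022) and at 6 weeks (-1.34 ± 0.24 (SE), adjusted p = 0.00075), and at 65 Gy the values, -0.89 ± 0.24 (SE), adjusted p = 0.027, and -0.90 ± 0.27 (SE), adjusted p = 0.038, were under the fold limit. Without 75 Gy replicate 3134, the lowest library of its group, the 2-week value was -0.96 and no collagen gene fell there. Without control replicate 3135 it was called at 65 Gy and 6 weeks too. Beside it, the sum of 5 genes of basal epithelium was 1.11 to 9.86 CPM in controls of 6 weeks, 2.65 to 3.02 after 65 Gy and 2.72 to 10.8 after 75 Gy, and 0.893 to 4.73, 1.30 to 5.34 and 1.49 to 2.22 CPM at 2 weeks. Their part in the value was not tested.

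**Figure D5:**
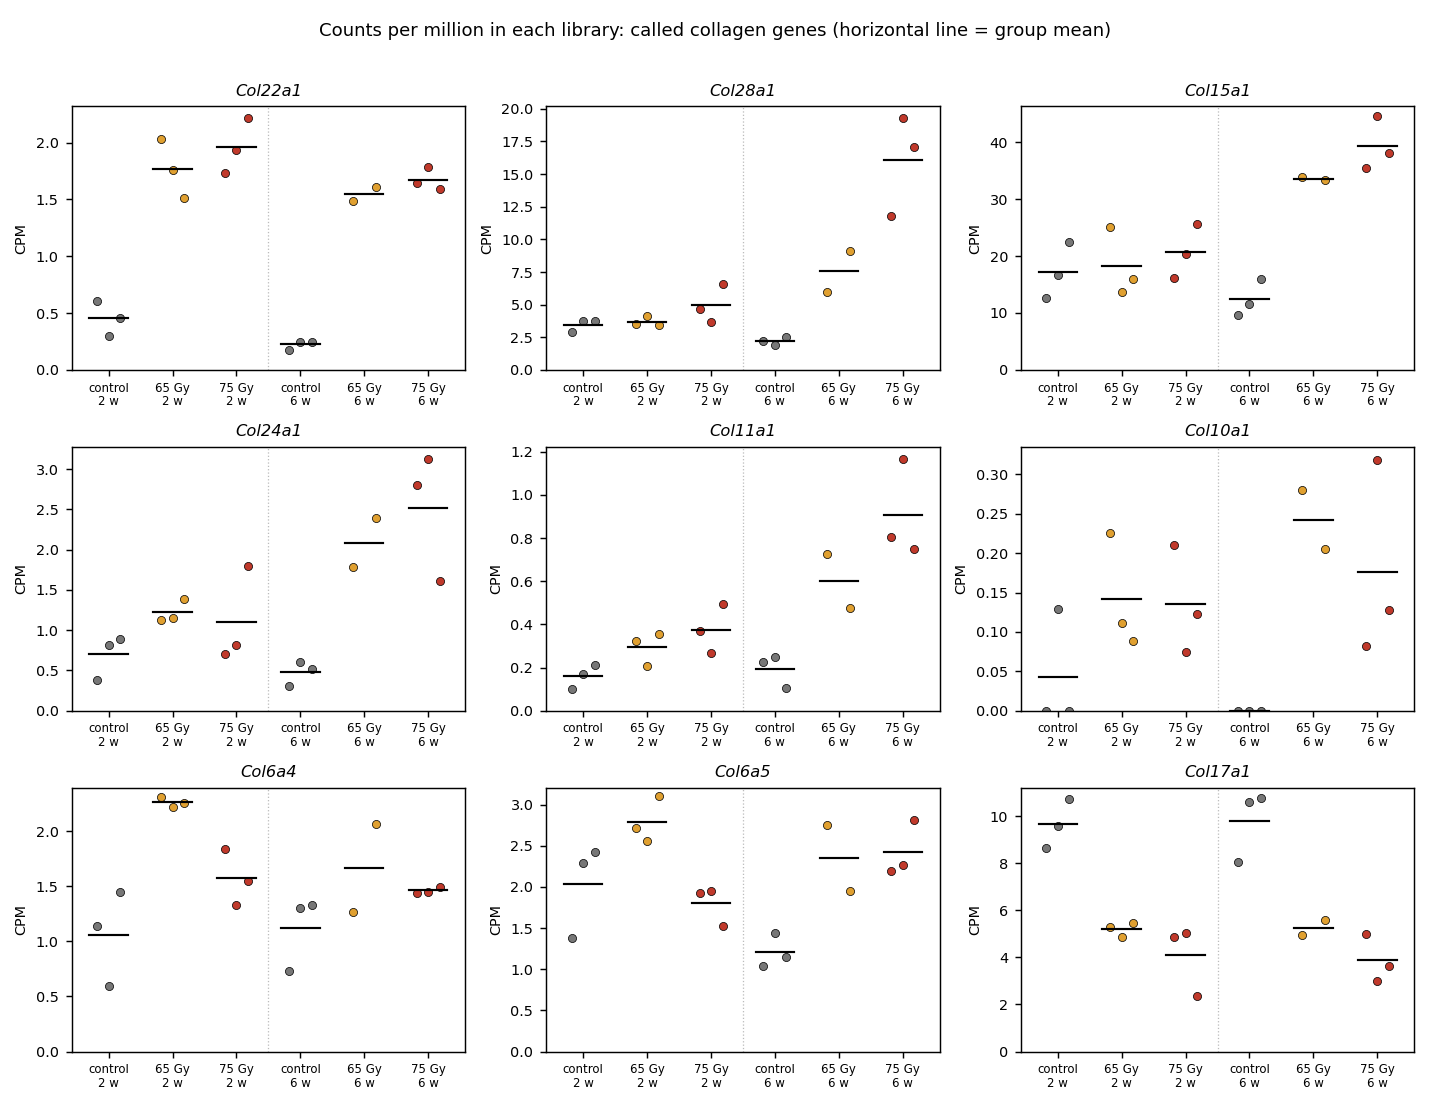
CPM (linear axes from 0) of 9 of the 10 called collagen genes, all but Col5a2, in each library by group, 1 point a library and a line at the group mean. Col22a1 is above its controls at both times, Col15a1 and Col28a1 are above them at 6 weeks only, and Col17a1 is below them at both times.

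Col13a1, found at cell adhesions and the neuromuscular junction, was the transmembrane gene with the highest RPKM. It measured 137, 76.96 and 95.4 CPM in the controls of 2 weeks, 73.9, 65.3 and 82.1 after 65 Gy and 74.8, 70.1 and 42.9 after 75 Gy. In the 6-week lungs it measured 84.3, 91.0 and 83.9 CPM in controls, 64.0 and 73.0 after 65 Gy and 76.3, 68.3 and 61.2 after 75 Gy. At 75 Gy and 2 weeks its log2 fold change was -0.72 ± 0.20 (SE), adjusted p = 0.019, and the other 3 values did not pass. Col23a1 had -0.78 ± 0.16 (SE), adjusted p = 0.0029, and -0.69 ± 0.16 (SE), adjusted p = 0.0036, at 75 Gy at 2 and 6 weeks, and -0.60 ± 0.18 (SE), adjusted p = 0.036, at 65 Gy and 6 weeks, under the fold limit. Col25a1, a collagen of neurons, had log2 fold changes of 0.24 to 1.02 with SE of 0.48 to 0.55 and did not pass.

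No difference between the doses passed the test for any collagen gene. For 75 Gy against 65 Gy edgeR called 0 of 43 at 2 weeks and 0 of 43 at 6 weeks, as it called 0% of all genes, and DESeq2 called 0 collagen genes at either time. An unadjusted p under 0.05 was found for 2 genes at 2 weeks (Col23a1, log2 -0.48, and Col6a5, -0.63) and for 1 at 6 weeks, Col28a1. The 3 collagen genes are named for their small p. The log2 differences ranged from -1.26 to 0.43 at 2 weeks and from -0.46 to 1.08 at 6 weeks, and values of this size are not shown to be equal.

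Between the controls of 6 weeks and those of 2 weeks 1 of the 43 tested collagen genes was called, Col3a1, and the fitted values of 29 were lower and of 14 higher. Col3a1 fell (-1.01 ± 0.19 (SE), adjusted p = 0.017), where 0.336% of all genes fell and 0.576% were called. By the adjusted p alone no collagen gene was higher and 2 were lower (0.612% and 1.02% of all genes): Col3a1 and Col5a2, the latter with -0.75 ± 0.11 (SE), adjusted p = 0.0049. The Col3a1 call was lost without control replicate 3128, 3135 or 3137, the value nearest 0 being -0.73, without 3128. Without control replicate 3127 Col22a1 was called as well, as it was by DESeq2. The fibrillar median was -0.55 and the type IV median -0.08, against 0.01 over all genes. The cause was not tested.

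Fibrillar chains took a higher share of collagen RNA in irradiated lungs than in the controls of the same time. As a share of the summed RPKM of all collagen genes, the fibrillar class made up 24.1% ± 1.502 (SD, n = 3) in the controls of 6 weeks, 32.1% ± 3.89 (n = 2) after 65 Gy and 35.1% ± 2.87 (n = 3) after 75 Gy, with no overlap between irradiated and control libraries. At 2 weeks it made up 31.4% ± 2.103 (n = 3), 36.8% ± 2.45 (n = 3) and 40.3% ± 2.39 (n = 3) in the same order, again with no overlap with the controls. Across the times there was overlap. The irradiated libraries of 6 weeks ranged from 29.3% to 34.8% at 65 Gy and from 32.4% to 38.1% at 75 Gy, and the 2-week controls from 29.6% to 33.7%. Type IV made up 49.1% ± 1.89, 44.8% ± 4.54 and 41.9% ± 2.58 at 6 weeks in controls, after 65 Gy and after 75 Gy, and 43.6% ± 1.92, 41.6% ± 2.66 and 39.2% ± 1.36 at 2 weeks. The summed RPKM of all collagen genes was 867 to 965 in the controls of 6 weeks, 1085 to 1158 after 65 Gy and 899 to 1100 after 75 Gy. At 2 weeks it was 989 to 1433 in controls, 1189 to 1422 after 65 Gy and 1180 to 1336 after 75 Gy. No test was made of these shares and sums.

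Of 19 genes for chain hydroxylation, glycosylation and folding, 1 rose in each of the 4 comparisons, a share near that of all genes (5.67% and 3.47% at 75 and 65 Gy at 2 weeks, 7.28% and 4.34% at 6 weeks). It was P4ha3, a catalytic subunit of prolyl 4-hydroxylase, the enzyme that stabilises the helix. Its log2 fold change was 1.19 ± 0.21 (SE), adjusted p = 0.00096, and 1.09 ± 0.21 (SE), adjusted p = 0.0035, at 75 and 65 Gy at 2 weeks, and 1.97 ± 0.21 (SE), adjusted p = 1.8e-05, and 1.68 ± 0.22 (SE), adjusted p = 0.00026, at 6 weeks. Colgalt2, which adds galactose to hydroxylysine, fell at 75 Gy at 2 weeks (-1.15 ± 0.20 (SE), adjusted p = 0.001) and 6 weeks (-1.04 ± 0.20 (SE), adjusted p = 0.0011). Of all genes, 2.07% and 3.13% fell at 75 Gy at 2 and 6 weeks. The median of the list lay between -0.03 and 0.13.

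Of 9 tested genes for the trimming of procollagen ends, Mep1a, a meprin, rose at 2 weeks at both doses. Pcolce2, an enhancer of the C-proteinase, fell at 75 Gy at both times (-1.10 and -1.04), and Tll1, a C-proteinase, fell at 65 Gy at 2 weeks (-1.005) and at 75 Gy at 6 weeks (-1.09). Of 10 genes for collagen receptors and uptake, Lair1, an inhibitory collagen receptor of leukocytes, rose in all 4 comparisons, at 75 Gy by 2.02 ± 0.35 (SE), adjusted p = 0.001, at 2 weeks and by 1.91 ± 0.35 (SE), adjusted p = 0.00081, at 6 weeks. Itga1, the collagen-binding integrin alpha 1, fell at 6 weeks at 75 Gy (-1.60 ± 0.15 (SE), adjusted p = 5.9e-06) and at 65 Gy (-1.09 ± 0.17 (SE), adjusted p = 0.00088), as did Gp6, the platelet collagen receptor (-1.71 and -1.79). The summed level of 6 leukocyte genes was 4362 to 4853 CPM in the controls of 6 weeks and 10633 to 12034 after 65 Gy and 12964 to 14179.7 after 75 Gy, and 4924 to 10412, 8249 to 9109.6 and 11204 to 12935 CPM at 2 weeks, and 2 of the 6 were called higher in each comparison, with Cd68 in all 4. Over all genes 5.67% and 3.47% rose at 75 and 65 Gy at 2 weeks, and 7.28% and 4.34% at 6 weeks. The shares that fell were 2.07% and 0.88% at 2 weeks, and 3.13% and 0.943% at 6 weeks. By the adjusted p alone, 4 of the 6 leukocyte genes were higher and 1 lower at 75 Gy and 2 weeks (11.8% and 10.5% of all genes). At 65 Gy 2 were higher and 0 lower (6.7% and 4.29%). At 6 weeks 2 were higher and 1 lower at each dose (18% each way at 75 Gy, 7.66% and 7.01% at 65 Gy). Their median log2 fold change was 0.77 and 0.37 at 75 and 65 Gy at 2 weeks, and 0.37 and 0.38 at 6 weeks. The part of leukocytes in the Lair1 value was not tested.

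Of 16 partners of type IV in the basement membrane (laminins, nidogens, perlecan, agrin and peroxidasin), 1 was higher and 5 lower at 75 Gy at 2 weeks by the adjusted p alone (11.8% and 10.5% of all genes), and 1 was higher and 0 lower at 65 Gy (6.7% and 4.29%), all under the fold limit. At 6 weeks 0 were higher and 7 lower at 75 Gy (18% of all genes each way), and 1 was higher and 1 lower at 65 Gy (7.66% and 7.01%). Past the fold limit, Pxdn, the peroxidase that cross-links type IV, fell at 75 Gy and 6 weeks (-1.14 ± 0.15 (SE), adjusted p = 7e-05), and the laminin gene Lama1 rose at 65 Gy and 6 weeks (1.10 ± 0.33 (SE), adjusted p = 0.04). Of all genes, 3.13% fell at 75 Gy and 4.34% rose at 65 Gy at 6 weeks. The median of the list was -0.42 at 75 Gy and -0.24 at 65 Gy at 6 weeks.

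Genes used as markers of mesothelium, fat, heart muscle and skeletal muscle were also present. Of 5 mesothelial genes 3 fell at 65 Gy and 6 weeks (Wt1, Upk3b and Lrrn4), where 0.943% of all genes fell. The sum was 49.4 to 116 CPM in the controls, 36.2 to 37.7 after 65 Gy and 42.2 to 70.8 after 75 Gy. Of 5 adipocyte genes 1 fell at 75 Gy and 2 weeks (Cidec, beside 2.07% of all genes) and 1 rose at 75 Gy and 6 weeks (Fabp4, beside 7.28%). The sum of 5 cardiac muscle genes ranged from 51.5 to 559.5 CPM over all libraries, with Tnni3 called higher at 75 Gy and 6 weeks. That of 7 skeletal muscle genes ranged from 5.29 to 16.9 CPM, with Tnni2 called higher at both doses at 6 weeks and, at 75 Gy and 2 weeks, Acta1 called higher and Ckm lower. Which cells carried these genes, and how far they gave collagen counts, was not tested.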

How the data were processed

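Lung RNA of 17 libraries in 6 groups was analysed, 1 count per gene and library. As deposited, the values are raw counts, made by the authors with Trimmomatic, HISAT2 alignment to GRCm38.p6 with the NCBI annotation, and StringTie. How StringTie output became counts, and whether counting used strand, is not given in the sources used here. No collagen count was 1 to 3, although 10.1% of all values above 0 in the table were.

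Groups came from the labels. The third 65 Gy library of 6 weeks was not analysed here. In R 4.3.3, edgeR 4.0.16 fitted its quasi-likelihood model to all 17 libraries, with TMM factors and 1 coefficient per group, after filterByExpr (minimum count 10, minimum total 15) left 22052 of 45777 genes. P-values were adjusted by Benjamini-Hochberg over those genes for each of 9 comparisons, and genes were called at an adjusted p of no more than 0.05 and a log2 fold change of 1 or more in size. SE is the log2 fold change divided by the square root of F. RPKM used exon lengths of a GENCODE annotation, and gene positions and promoter windows came from RefSeq on GRCm38.p6. Libraries held 46764569 to 66797879 counts, and the number of libraries limits the precision. The fit was tested on simulated data: of 100 genes raised 4-fold and 100 lowered to 0.25-fold at 75 Gy and 6 weeks, it called 100 and 100, with 4 of the unchanged genes among the 21270 tested. The changed genes were drawn from well-counted genes, with a single fixed spread between libraries. The simulation therefore does not cover scarce genes such as Col10a1, with at most 18 counts in a library, or changes near the fold limit.

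Collagen genes and the other gene lists were chosen with earlier results of these data known. Values in every library are given for called genes, type I, III and IV chains and the gene with the highest RPKM of each class. From other lists at most 3 called genes a comparison, those with the smallest p, are named. In total 7 alternatives were tried, among them DESeq2 1.42.0, and 17 fits each left out 1 library.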

Additional observations from a re-analysis of the deposited data

Results flagged for a closer look

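The 75 Gy effect on Col28a1 differed between the times by 2.33 on the log2 scale in the test of the difference itself (2.33 ± 0.33 (SE), adjusted p = 0.0084, edgeR's quasi-likelihood test). It was 0.52 at 2 weeks and 2.84 at 6 weeks, and all 3 irradiated libraries of 6 weeks lay above the controls. Leaving out any 1 of the 17 libraries gave differences of 2.15 to 2.58, each called. Groups of 2 or 3 libraries were not tested for single libraries that stand apart.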

How the results depend on the processing

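The counts of called collagen genes were recomputed under 7 alternatives. Without the fold limit, 4, 4, 14 and 12 genes were higher and 7, 1, 6 and 3 lower at 75 and 65 Gy at 2 weeks and 75 and 65 Gy at 6 weeks, and 2 were called between the controls. With upper-quartile factors 2 genes rose at 75 Gy and 2 weeks (Col11a1 added). With only the groups compared, 1 rose at 65 Gy and 0 fell at 75 Gy at 2 weeks, and 0 were called between the controls. DESeq2 called 2 between the controls, 3 for the 75 Gy effect at 6 against 2 weeks and 1 for the 65 Gy effect. The cause was not tested. Filters on low counts and RLE factors kept every count within 1.5 times.

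Leaving out 1 library moved the genes that rose to 1 to 2 (2 without 3127, 3128, 3133 or 3137) at 75 Gy and 1 (without 3129, 3130 or 3131) to 3 (without 3127 or 3128) at 65 Gy at 2 weeks, and to 7 to 11 and 6 to 8 at 6 weeks. The genes that fell moved to 0 (without 75 Gy replicate 3134) to 2 (without 3133) at 75 Gy and 2 weeks, and 0 to 1 (without control replicate 3135) at 65 Gy and 6 weeks. Calls between the controls moved to 0 (without 3128, 3135 or 3137) to 2 (without 3127). A lone 65 Gy library of 6 weeks is assumed to vary like the other groups. Of 523 recomputed values of single called genes, 501 kept their call, 22 lost it and 0 reversed. No paired analysis was possible because no number is shared by libraries of different groups. No detection limit was computed for scarce chains, and a p that misses the threshold does not show equal levels.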
